A study of Mus musculus with 14 samples.

Results

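The genes described here encode the enzymes that join a sugar, such as glucuronic acid, or sulfate to drugs, hormones, bile acids and bilirubin. These enzymes are the UDP-glucuronosyltransferases of the Ugt1 and Ugt2 families, the related Ugt3 enzymes and the cytosolic sulfotransferases (Sult). The genes were chosen by symbol and protein-coding biotype. The choice gave 42 of the 54446 genes in the table. These were 21 Ugt genes (9 Ugt1, 10 Ugt2 and 2 Ugt3) and 21 Sult genes (6 Sult1, 9 Sult2 and 6 of the other Sult families), and 6 pseudogenes of the families were left out. Ugt enzymes sit in the endoplasmic reticulum, and those of the Ugt1 and Ugt2 families take the sugar from UDP-glucuronic acid. Sult enzymes are cytosolic and take sulfate from the donor PAPS. In the liver, hepatocytes make most of these enzymes, and the charged products leave through transporters into bile or blood. Several members are known in mice to differ between the sexes and to respond to the nuclear receptors CAR and PXR.

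Total RNA was measured in frozen livers of 5-week-old mice of the C57BL/6 strain. The knockout group was 8 livers carrying a floxed Mettl3 gene and Alb-Cre, that is, Cre recombinase under the albumin promoter, which hepatocytes use. Whole liver was measured, with the other cell types it holds. The control group was 6 livers with the floxed gene and no Cre, so that all 14 livers carried the floxed allele and no Cre-only group was analysed here. Mettl3 encodes the catalytic subunit of the enzyme complex that places N6-methyladenosine on mRNA.

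The values given here are normalised estimated counts, 1 per gene and library. Depth was 11.1 to 33.8 estimated megareads per library. Mettl3 values were 76.9 to 122 in knockouts and 199 to 263 in controls, with a log2 difference of -1.17 ± 0.12 (SE, adjusted p = 1.32e-05 in limma). Sex was not labelled. Replicates 1 to 4 of both groups had Y-linked RNA (Y-positive), and knockouts 5 to 8 and controls 5 and 6 had high Xist (Xist-high) and were sequenced less deeply, at 11.1 to 19.3 estimated megareads, against 24.3 to 33.8 in Y-positive libraries. Knockouts 3, 6 and 7 stood apart, with first principal component scores of 61.5, 99.7 and 96.3, where the other 5 knockouts scored -10.7 to 27.6. In these 3 knockouts the summed values of 7 hepatocyte markers (4 of 7 called lower) were 545957, 456733 and 454646. The other 5 knockouts had sums of 711133 to 949428, and controls had sums of 913251 to 1154600. Their summed values of 8 cholangiocyte markers (3 of 7 tested called higher, none at 0 in all libraries) were 3099, 2672 and 3556. The other 5 knockouts had sums of 1087 to 1608, and controls had sums of 705 to 1279.8. Knockouts 6 and 7 also had 7.85% and 7.91% of their values in mitochondrial protein-coding genes, against 2.77% to 5.47% in the other 12 libraries. In whole liver, fewer cells of a type and less RNA per cell cannot be told apart.

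Of the 42 transferase genes 32 had enough RNA to be tested, of which 11 were lower and 1 was higher in knockouts. A gene was tested where its value reached 10 in at least 6 libraries, and called where its Benjamini-Hochberg adjusted p was at most 0.05. Over all 23554 genes tested, 11.0% were called lower and 11.5% higher. The median log2 change, knockout minus control on the log2(value + 1) scale, was -0.92 over the 32 transferase genes and 0.05 over all genes tested, and 24 of the 32 changes were negative. The lower genes came from both enzyme classes, 7 of 20 tested Ugt genes and 4 of 12 tested Sult genes. Knockout and control values did not overlap for 5 of the lower genes, Sult1b1, Sult2a8, Sult5a1, Ugt2a3 and Ugt3a1, where 4.02% of all genes tested were lower without overlap. No member was higher without overlap (background 4.14%). All 8 knockouts lay below the control mean for each of the 11 lower genes, which were called from these same values. The same held for some members that were not called, among them Sult2a7 and Ugt2b38, and the share over all genes was not counted. At 0.05, the q values of the authors' deposited table called the same 12 transferase genes, 11 with a lower and 1 with a higher mean in knockouts (background 8.26% and 8.82%). With libraries scaled to equal sums in place of the deposited size factors, the median of all genes moved up by 0.33, and 9 transferase genes were lower and 3 higher (background 3.68% and 33.3%). Ugt2b36 and Ugt2b37 then lost their calls, and Sult1c2 and Ugt2b35 were called higher. Over all genes, 90.04% of the calls were then higher, as against 51.1% with the deposited size factors.

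**Figure D1:**
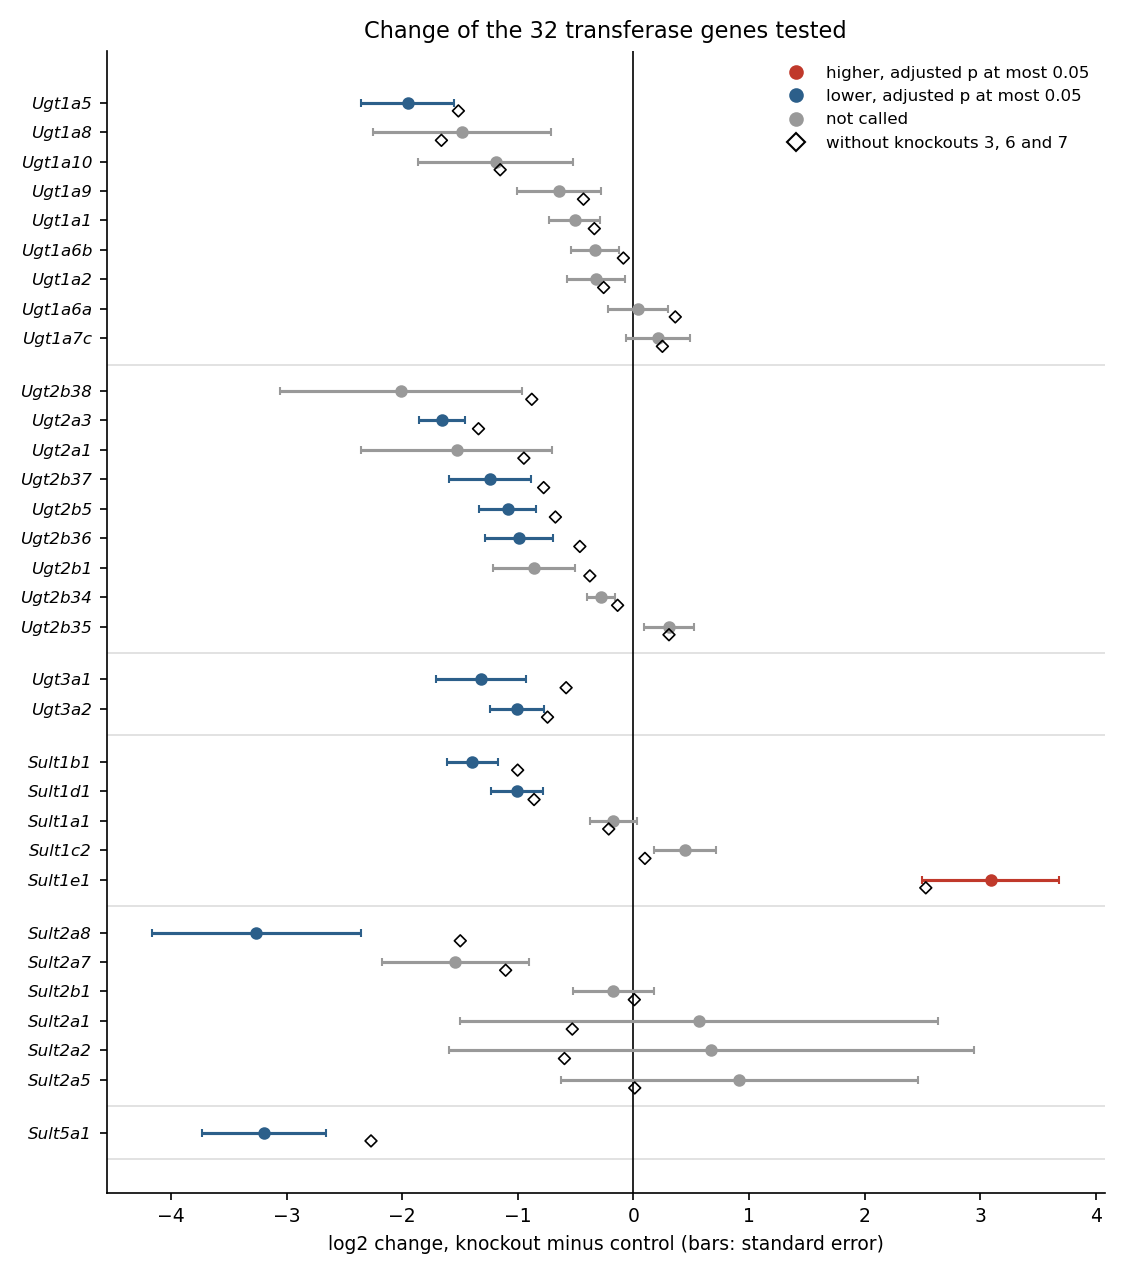
Log2 change, knockout minus control, with its standard error, for the 32 transferase genes tested, grouped by family (colour: called higher, called lower or not called), with the change without knockouts 3, 6 and 7 as an open diamond. Sult2a8 (-3.26) and Sult5a1 (-3.19) lie farthest to the left and Sult1e1 (3.09) farthest to the right, and the diamonds of all 12 called genes lie nearer to 0.

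The Ugt2 family includes the glucuronosyltransferases of steroids, bile acids and many drugs. Of its 9 tested genes 4 were lower in knockouts, none was higher, and the family's median log2 change was -1.09. Ugt2a3 had the smallest p of the 32 genes tested. Its values were 1033, 1700.2 and 2546 in knockouts (lowest, median and highest), against 4521, 5357 and 6161 in controls. Every knockout was below every control, and the log2 change was -1.66 ± 0.20 (SE, adjusted p = 5.56e-05 in limma). Ugt2b5 had the highest value per kilobase of transcript of all 42 genes in both groups. Its values were 5716, 11262 and 15057 in knockouts (lowest, median and highest), against 14983, 21457 and 25820.3 in controls. Knockout 4 alone overlapped the controls, just above control 6, and the log2 change was -1.09 ± 0.25 (SE, adjusted p = 0.00569 in limma).

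Ugt2b36 values were 1527, 4336 and 5727 in knockouts (lowest, median and highest), against 4655, 6812 and 7713 in controls. Knockouts 3, 6 and 7 formed a low group and knockout 1 was the single knockout within the range of the controls. The log2 change was -0.99 ± 0.29 (SE, adjusted p = 0.0233 in limma). Without control 4 the gene was not called (-0.94, adjusted p = 0.0528), and its adjusted p ran over 0.0124 to 0.369 in its alternatives. Ugt2b37, a gene with much lower values, had 16.9, 60.8 and 110.2 in knockouts (lowest, median and highest), against 71.4, 137 and 174 in controls. The groups overlapped at control 1, the lowest control, and the log2 change was -1.24 ± 0.35 (SE, adjusted p = 0.0201 in limma). Ugt2b1 missed the threshold. Its values were 2320.5, 4838 and 8956 in knockouts (lowest, median and highest), against 3818, 8824 and 12943 in controls, with a log2 change of -0.86 ± 0.36 (SE, adjusted p = 0.0982 in limma). The lowest controls for Ugt2b1 were the Xist-high controls 5 and 6, which lay within the range of the knockouts. Without knockout 1, the highest knockout, Ugt2b1 was called lower (-1.02, adjusted p = 0.0434), with adjusted p values of 0.0434 to 0.790 over its alternatives. Of the others that were not called, Ugt2b34 had a log2 change of -0.28, Ugt2b35 of 0.31, Ugt2a1 of -1.53 and Ugt2b38 of -2.01, with limma adjusted p values of 0.117 to 0.329. Ugt2a1 values were low in both groups, at 0 to 19.3 in knockouts and 0.925 to 19.9 in controls. Many Ugt2 reads cannot be assigned to 1 gene with certainty: of the 31-base words in the Ugt2b5 transcripts 56.4% also occurred in another gene, as did 34.4% of those of Ugt2b37, 11.99% of those of Ugt2b36 and 8.05% of those of Ugt2a3.

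Both Ugt3 genes were lower. Human UGT3A enzymes use sugars other than glucuronic acid. Ugt3a1 values were 37.8, 190.1 and 229 in knockouts (lowest, median and highest), against 296, 317 and 333 in controls. The controls lay close together, and the knockouts were all below them, with knockouts 3, 6 and 7 at 76.3, 37.8 and 51.4. Its log2 change was -1.32 ± 0.39 (SE, adjusted p = 0.0234 in limma), and without those 3 knockouts it was -0.58 ± 0.09 (SE, adjusted p = 0.00102 in limma). Ugt3a2 values were 2767, 5851 and 9427 in knockouts (lowest, median and highest), against 8503, 10829.9 and 16188 in controls. The groups overlapped at knockout 5, an Xist-high library, and the log2 change was -1.01 ± 0.23 (SE, adjusted p = 0.00601 in limma).

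**Figure D2:**
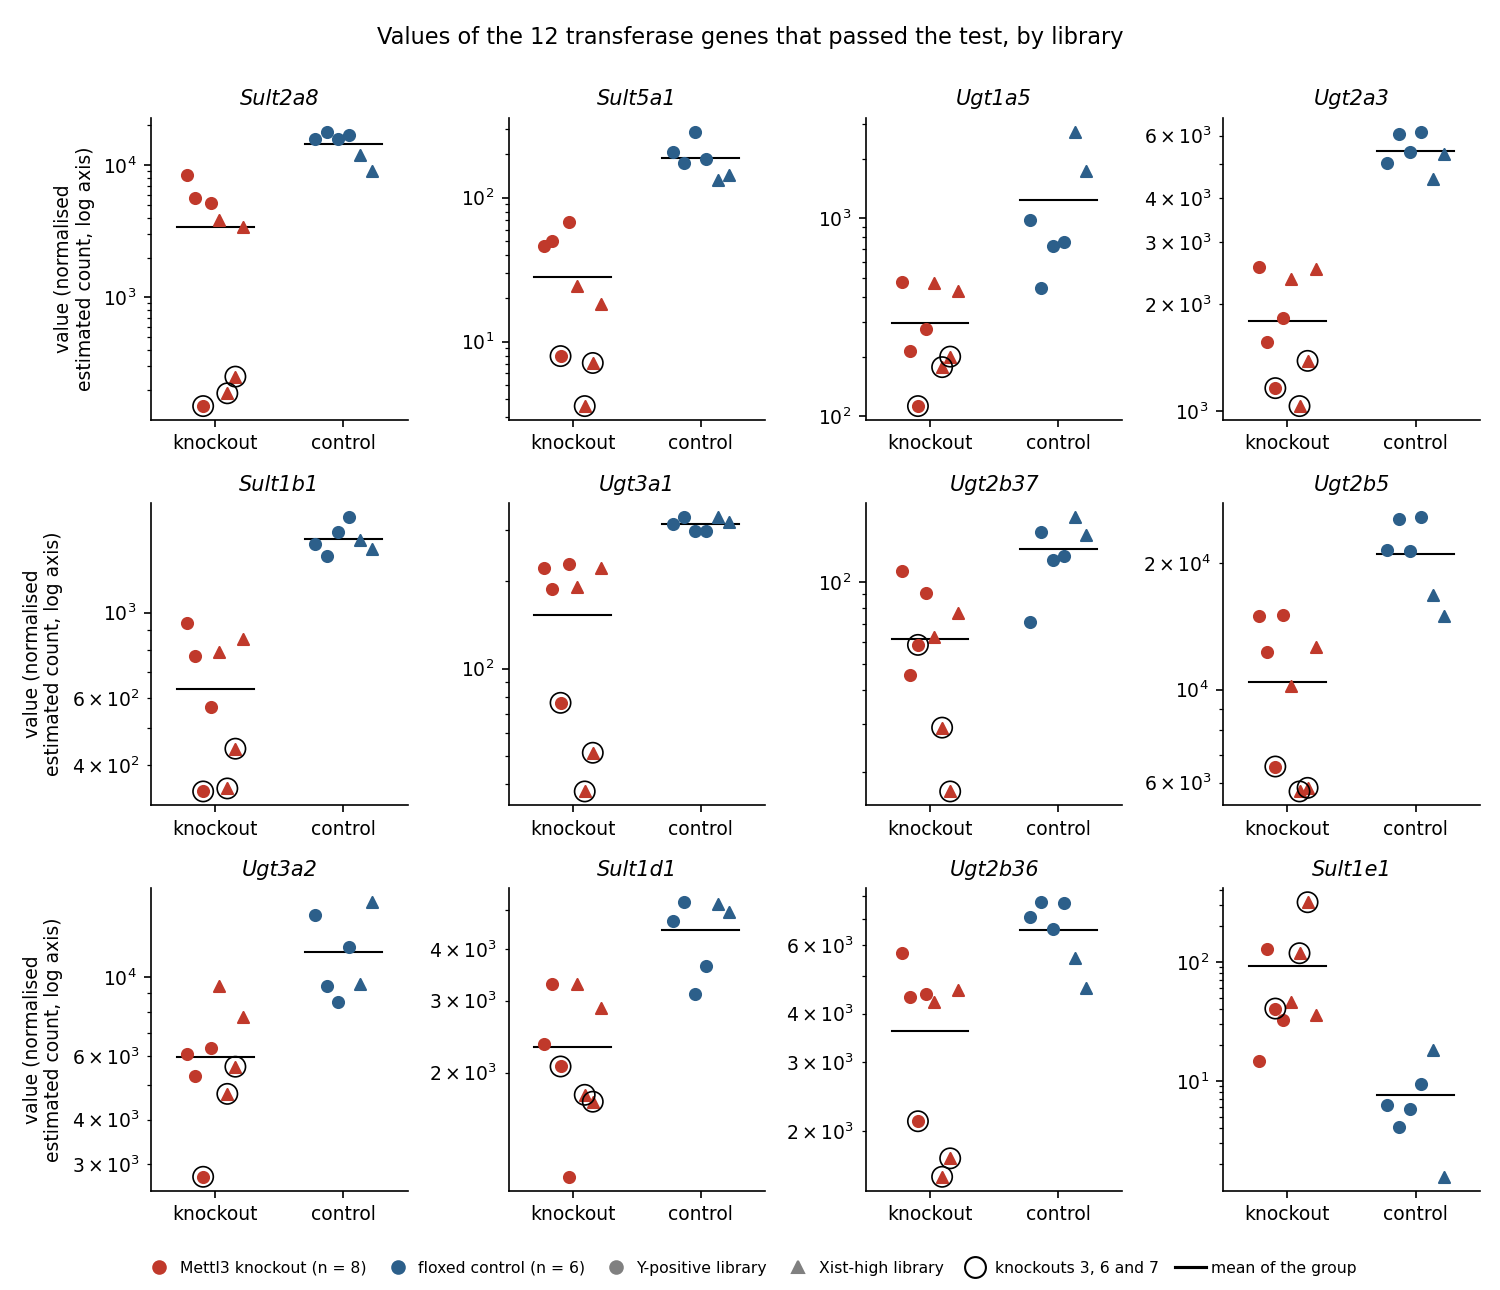
Values by library for the 12 called transferase genes, knockouts left and controls right, on log axes that differ between panels, with the group mean as a line, Y-positive libraries as circles, Xist-high libraries as triangles and knockouts 3, 6 and 7 ringed. The ringed knockouts are the 3 lowest in 8 of the 11 lower genes, and for Sult2a8 they lie at 150.1, 188 and 251 below the 3409 to 8358 of the remaining 5.

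The Ugt1 locus on chromosome 1 makes 9 enzymes from 1 stretch of DNA. Each transcript has its own first exon, spliced to a common set of later exons, so that the first exon sets the substrates and reads from the later exons do not tell the members apart. The first 1311 bases after the first exon were identical in all 9 transcripts of the GENCODE M21 annotation (GRCm38). The junctions are shown because each joins a member's own first exon to the shared part. The last 25 bases of the first exon are in lower case and the first 25 bases of the shared second exon in capitals (plus strand, second exon at chr1:88215044-88215175).

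Ugt1a1: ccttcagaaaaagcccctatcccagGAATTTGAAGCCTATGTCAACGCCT
Ugt1a2: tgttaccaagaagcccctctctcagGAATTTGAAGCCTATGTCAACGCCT
Ugt1a5: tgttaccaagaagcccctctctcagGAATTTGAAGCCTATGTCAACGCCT
Ugt1a6a: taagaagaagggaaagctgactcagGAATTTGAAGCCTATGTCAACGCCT
Ugt1a6b: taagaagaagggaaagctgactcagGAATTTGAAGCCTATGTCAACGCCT
Ugt1a7c: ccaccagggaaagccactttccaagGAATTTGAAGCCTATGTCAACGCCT
Ugt1a8: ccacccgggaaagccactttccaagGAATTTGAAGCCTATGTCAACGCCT
Ugt1a9: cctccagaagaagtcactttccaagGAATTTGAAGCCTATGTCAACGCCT
Ugt1a10: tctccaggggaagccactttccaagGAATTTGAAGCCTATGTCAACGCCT

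The first-exon ends of Ugt1a2 and Ugt1a5 were the same over these 25 bases, and so were those of Ugt1a6a and Ugt1a6b. The printed junctions therefore do not tell apart the genes within each of these pairs. Across whole transcripts, the share of 31-base words found in another gene was 65.3% for Ugt1a5 and 81.3% for Ugt1a1, so values of single Ugt1 members rest on how the quantification divided shared reads.

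Ugt1a5 was the only one of the 9 that was called, and it was lower. Its values were 113, 246 and 477 in knockouts (lowest, median and highest), against 444, 869 and 2738 in controls. The knockouts overlapped the controls only at control 2, the lowest control, and the highest controls were the Xist-high controls 5 and 6 at 2738 and 1735. The gene changed by -1.95 ± 0.40 (SE, adjusted p = 0.00288 in limma). Taken separately, the change was -1.55 among Y-positive libraries and -2.90 among Xist-high ones. Ugt1a5 made up 2.05% ± 0.69 of the summed values of the locus in knockouts and 6.03% ± 2.98 in controls (SD, n = 8 and n = 6). Ugt1a1, the enzyme that conjugates bilirubin, had 4239, 5557 and 10766 in knockouts (lowest, median and highest), against 6015, 8457 and 12352 in controls. The groups overlapped, the log2 change was -0.51 ± 0.22 (SE, adjusted p = 0.112 in limma), and the share of the locus was 47.02% ± 12.4 in knockouts and 47.3% ± 5.77 in controls. Ugt1a1 was called lower with library class as a covariate (-0.60, adjusted p = 0.0227, in a fit that called 11.4% of all genes lower and 11.9% higher), and without knockout 5 (-0.62, adjusted p = 0.0336). Its adjusted p values ran over 0.0139 to 0.554 in its alternatives. Of the others, Ugt1a8 had a log2 change of -1.48, Ugt1a10 of -1.19, Ugt1a9 of -0.64, Ugt1a6b of -0.33, Ugt1a2 of -0.32 and Ugt1a7c of 0.21, with limma adjusted p values of 0.186 to 0.630. Ugt1a6a, which conjugates small planar phenols, had values of 1259 to 5352 in knockouts and 2072 to 3997 in controls, with a log2 change of 0.04. Its share of the locus was 22.4% ± 5.91 in knockouts and 16.2% ± 5.48 in controls. The sum over the locus, which does not depend on how reads were divided among its members, was 13952 ± 3294 in knockouts and 18979 ± 3589 in controls (SD), 0.735 times as high in knockouts. The sums ran over 9394 to 17526 in knockouts and 16139 to 25042 in controls, so the groups overlapped, and the sum itself was not tested.

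**Figure D3:**
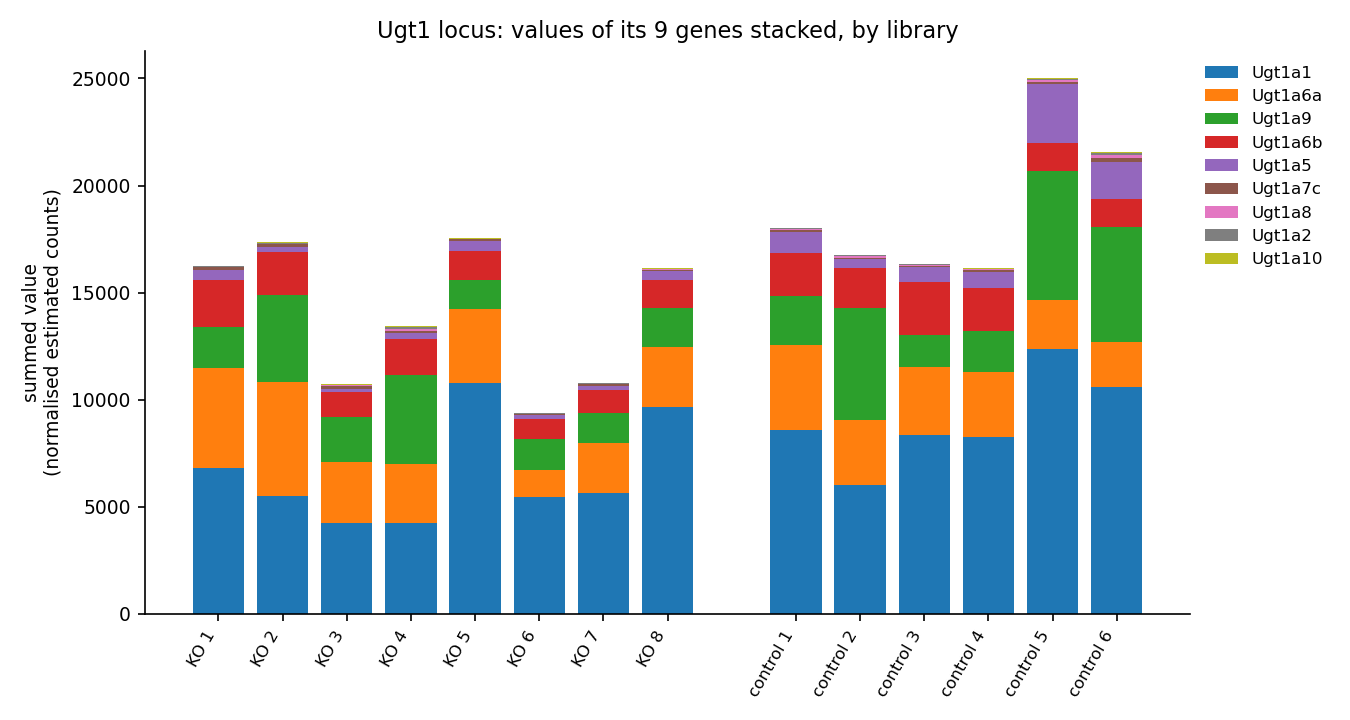
Values of the 9 Ugt1 genes stacked for each library (normalised estimated counts), 8 knockouts (KO) left and 6 controls right. The stacks reach 9394 to 17526 in knockouts and 16139 to 25042 in controls, and the purple Ugt1a5 layer is thickest in Xist-high controls 5 and 6.

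The Sult1 family sulfates phenols, oestrogens, thyroid hormones and catecholamines. Sult1e1, the oestrogen sulfotransferase, was the only transferase gene called higher. Its values were 14.8, 43.4 and 317 in knockouts (lowest, median and highest), against 1.56, 6.04 and 18.2 in controls. Knockout 1 (14.8) was the single knockout within the range of the controls, whose highest value was 18.2 in control 5. The fitted change was 3.09 ± 0.59 (SE, adjusted p = 0.00173 in limma), and without knockouts 3, 6 and 7 it was 2.53 ± 0.55 (SE, adjusted p = 0.00703 in limma). The gene passed the filter through the knockouts, all 8 of which reached a value of 10, as did 1 control. Sult1b1, which acts on thyroid hormones and small phenols, had 342, 669.6 and 939 in knockouts (lowest, median and highest), against 1402, 1528 and 1777 in controls. All knockouts were below all controls, and the log2 change was -1.39 ± 0.22 (SE, adjusted p = 5.00e-04 in limma). Sult1d1, a mouse sulfotransferase of catecholamines, had 1114, 2213 and 3297 in knockouts (lowest, median and highest), against 3117, 4810.4 and 5212 in controls. Knockouts 2 and 5 were the highest and overlapped control 3 alone, and the log2 change was -1.01 ± 0.23 (SE, adjusted p = 0.00493 in limma). Sult1a1, the main phenol sulfotransferase, was the highest of the family. Its values were 3561, 4984 and 6244 in knockouts (lowest, median and highest), against 3421, 5844 and 9049 in controls. The controls spanned the knockouts, with the Xist-high controls highest. The log2 change was -0.17 ± 0.21 (SE, adjusted p = 0.591 in limma), and at equal library sums it was 0.17, while quantile normalization gave 0.11. Sult1c2 had a log2 change of 0.45 ± 0.27 (SE, adjusted p = 0.252 in limma), with its highest values, 227 and 230.2, in knockouts 6 and 7.

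Sult1b1, Sult1d1 and Sult1e1 are neighbours beside the Ugt2 cluster on chromosome 5. The 13 members there, 10 Ugt2 and 3 Sult1 genes, lie within 701.8 kb (chr5:86889767-87591594, GRCm38). Of these 13, 6 were lower and 1 was higher. The gap between Sult1e1, which rose, and Sult1d1, which fell, is 6941 bases, with both genes on the minus strand. The RefSeq promoters of these neighbours and of Ugt2a3 (GRCm38.p6, from 250 bases before to 50 after the annotated start, printed 5′ to 3′) are shown because the first 2 are the adjacent genes with opposite calls and Ugt2a3 had the smallest p. Capitals mark matches to GTTAAT, a motif known from promoters of liver genes, or GCGTG, the core of the xenobiotic response element bound by the AHR, on either strand, so that GCGTG can appear as CACGC. The Sult1e1 window (chr5:87591562-87591861, minus strand) has neither, the Sult1d1 window (chr5:87568957-87569256, minus strand) has 1 of each, and the Ugt2a3 window (chr5:87337146-87337445, minus strand) has GTTAAT at 54 and 47 bases before the start. The other 4 lower genes of the cluster, Sult1b1, Ugt2b36, Ugt2b37 and Ugt2b5, have 0 matches to GTTAAT in their windows, like Sult1e1.

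Sult1e1: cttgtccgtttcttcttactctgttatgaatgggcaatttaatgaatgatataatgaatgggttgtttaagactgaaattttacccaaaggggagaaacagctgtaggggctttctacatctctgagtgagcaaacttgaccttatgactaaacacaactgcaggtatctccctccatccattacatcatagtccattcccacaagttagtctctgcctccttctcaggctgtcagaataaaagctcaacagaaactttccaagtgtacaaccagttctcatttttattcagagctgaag
Sult1d1: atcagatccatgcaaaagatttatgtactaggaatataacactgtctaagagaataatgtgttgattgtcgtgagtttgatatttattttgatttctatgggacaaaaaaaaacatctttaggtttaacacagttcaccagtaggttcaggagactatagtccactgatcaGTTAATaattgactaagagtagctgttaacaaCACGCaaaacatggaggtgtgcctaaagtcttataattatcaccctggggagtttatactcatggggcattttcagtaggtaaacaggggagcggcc
Ugt2a3: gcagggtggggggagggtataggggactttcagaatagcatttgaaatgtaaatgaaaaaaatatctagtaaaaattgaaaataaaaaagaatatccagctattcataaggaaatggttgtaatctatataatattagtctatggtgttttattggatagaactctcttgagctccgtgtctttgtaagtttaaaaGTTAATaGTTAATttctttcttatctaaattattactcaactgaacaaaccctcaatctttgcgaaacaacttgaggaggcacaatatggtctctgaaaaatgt

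Promoters were found for 36 of the 42 members, with 39 windows in all, since a gene can have several starts. GTTAAT was in 33.3% of the 39 windows and in 7.10% of all 32851 RefSeq windows of that length. GCGTG was in 15.4% of the members' windows and 32.4% of all. The motif TTCNNNGAA, bound by STAT factors, was in 5.13% of the members' windows and 8.30% of all. TGACNNNGC, the core of the antioxidant response element, was in none of the 39, and 12.4% of all windows had it. Among the genes with a promoter, GTTAAT was in 3 of 11 called and in 10 of 25 others. A match in such a window is a description of its letters only.

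Among the other sulfotransferases, the steepest changes were those of Sult2a8 and Sult5a1. Sult2a8 sulfates bile acids in mouse liver and was second only to Ugt2b5 in value per kilobase in controls, at 6797 ± 1582 per kb, whereas at 1576 ± 1408 per kb in knockouts it was in place 8. Its values were 150.1, 3634 and 8358 in knockouts (lowest, median and highest), against 9049, 15790.2 and 17989 in controls. No knockout reached the lowest control. Knockouts 3, 6 and 7, at 150.1, 188 and 251, lay far below the other 5 at 3409 to 8358. Its log2 change was -3.26 ± 0.90 (SE, adjusted p = 0.0170 in limma), and without those 3 knockouts it was -1.50 ± 0.23 (SE, adjusted p = 0.00101 in limma). Sult5a1 had 3.56, 21.2 and 68.0 in knockouts (lowest, median and highest), against 133, 181 and 288 in controls. No knockout overlapped a control, and 3 of the 8 knockouts, again 3, 6 and 7, were below 10. The gene changed by -3.19 ± 0.54 (SE, adjusted p = 7.04e-04 in limma), and -2.27 ± 0.31 (SE, adjusted p = 4.52e-04 in limma) without those 3.

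The Sult2a enzymes other than Sult2a8 are known for sulfating hydroxysteroids. Of the 4 of these genes that were tested, Sult2a1, Sult2a2, Sult2a5 and Sult2a7, 0 passed in limma and 1, Sult2a7, had an unadjusted p under 0.05 (0.0276). Sult2a1, Sult2a2 and Sult2a5 had positive log2 changes with large errors, 0.57 ± 2.07, 0.67 ± 2.27 and 0.92 ± 1.54 (SE, limma adjusted p = 0.874, 0.865 and 0.714). Mean values of these genes went the other way, at 0.244, 0.177 and 0.265 times the control means in knockouts. Sult2a7 values were 4.13, 11.0 and 30.8 in knockouts (lowest, median and highest), against 10.03, 20.3 and 204 in controls. The highest values by far were those of Xist-high controls 5 and 6, at 204 and 100.1, and the other controls lay among the knockouts. The fitted change was -1.54 ± 0.63 (SE, adjusted p = 0.0943 in limma), and with library class as a covariate Sult2a7 was called lower (-1.78, adjusted p = 0.0283). Its adjusted p values ran over 0.0212 to 0.323 in its alternatives. Sult2b1, known for sulfating cholesterol and pregnenolone, had a log2 change of -0.17 at values of 6.87 to 19.2 in knockouts and 4.67 to 30.7 in controls.

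The depth of the fall differed between knockouts. Knockouts 3, 6 and 7 were the 3 lowest knockouts for 8 of the 11 lower transferase genes, all but Sult1d1, Ugt2b37 and Ugt3a2, and for 738 of the 2583 genes called lower in the whole table (28.6%). Without them, 10 of the 11 genes were still called lower and Sult1e1 was still called higher, where 9.24% of all genes tested were called lower and 9.19% higher. The call lost was that of Ugt2b37 (-0.78, adjusted p = 0.0503), whose adjusted p ran over 0.0102 to 0.188 in its alternatives. All 12 changes kept their direction and all 12 were smaller, with a median over the 32 genes of -0.56 in place of -0.92. Ugt2a3 then had -1.34 ± 0.14 (SE, adjusted p = 7.27e-05 in limma), Sult1b1 -1.001 ± 0.12 (SE, adjusted p = 1.93e-04 in limma), Ugt2b5 -0.67 ± 0.16 (SE, adjusted p = 0.0120 in limma) and Ugt2b36 -0.46 ± 0.14 (SE, adjusted p = 0.0351 in limma). The part of the marker and mitochondrial differences of knockouts 3, 6 and 7 in these values was not tested.

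Many transferase genes differed between library classes in controls. Among controls, the 2 Xist-high libraries were above all 4 Y-positive ones for 12 of the 32 tested genes, where this held for 9.46% of all genes. They were below them for 9 genes, where the background was 11.8%. Among knockouts, the 4 Xist-high libraries were above the 4 Y-positive ones for 4 genes (background 3.24%) and below them for 1 (3.07%). Knockouts 6 and 7, which stood apart, are both Xist-high, and only 2 controls are. The class and depth of a library cannot be told apart.

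Sult3a1, an amine sulfotransferase known as female-predominant in mouse liver, had too little RNA in most libraries to be tested. Its values in Xist-high libraries were 5.41, 2.44, 10.1 and 0 in knockouts 5 to 8, against 1583 and 819.8 in controls 5 and 6. In Y-positive libraries they were 1.15 to 3.48 in knockouts and 1.34 to 2.31 in controls. The Xist-high knockouts were near the Y-positive libraries of either genotype and far from the Xist-high controls. Sult2a1 to Sult2a7, several of which are also female-predominant and share sequence with each other, were summed. The sum was 425 to 1740 in Xist-high knockouts and 6223 and 7909 in Xist-high controls. In Y-positive libraries it was 15.0 to 107 in knockouts and 18.2 to 28.5 in controls. The highest Y-positive library was knockout 3. Sult2a1 alone had 154 to 730.5 in Xist-high knockouts and 2226 to 2671 in Xist-high controls.

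Ugt2b38, known as male-predominant in mouse liver, ran the other way. Its values were 35.6 to 439.9 in Y-positive knockouts and 214 to 948 in Y-positive controls, and 6.26 to 37.6 in Xist-high knockouts and 22.4 to 39.1 in Xist-high controls. Its change was -1.86 (adjusted p = 0.112) within Y-positive libraries and -0.74 (adjusted p = 0.643) within Xist-high libraries. Within Xist-high libraries Ugt1a9 was lower, at 1351 to 1802 in knockouts and 5395 to 6056 in controls. The change there was -1.94 ± 0.19 (SE, adjusted p = 0.0103 in limma), against 0.24 within Y-positive libraries (adjusted p = 0.714). Ugt1a7c was higher within Y-positive libraries, with a change of 0.88 ± 0.21 (SE, adjusted p = 0.0228 in limma), and its change was -0.77 within Xist-high libraries (adjusted p = 0.348). When the difference between the knockout effects of the classes was itself tested in limma, 0 of the 32 genes passed at an adjusted p of 0.05, as against 0.0552% of all genes, and 9 had an unadjusted p under 0.05, as did 5.92% of all genes. Without the filter on low values, in a limma fit chosen after seeing the data, 1 transferase gene passed, Sult3a1 (Xist-high minus Y-positive change -8.33, adjusted p = 0.00703). That difference rests on the 2 Xist-high controls, and the share of all genes that passed in that fit is not given here. All 12 called genes had changes of the same direction in both classes, but they were called from the libraries of both classes together. Of these 12, 8 kept their call in Y-positive libraries alone and 1, Ugt1a5, in Xist-high libraries alone. Within Y-positive libraries alone, 7 transferase genes were lower and 2 higher (background 8.3% and 7.39%), and within the 6 Xist-high libraries alone 2 were lower and 0 higher (background 0.2% and 0.73%).

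**Figure D4:**
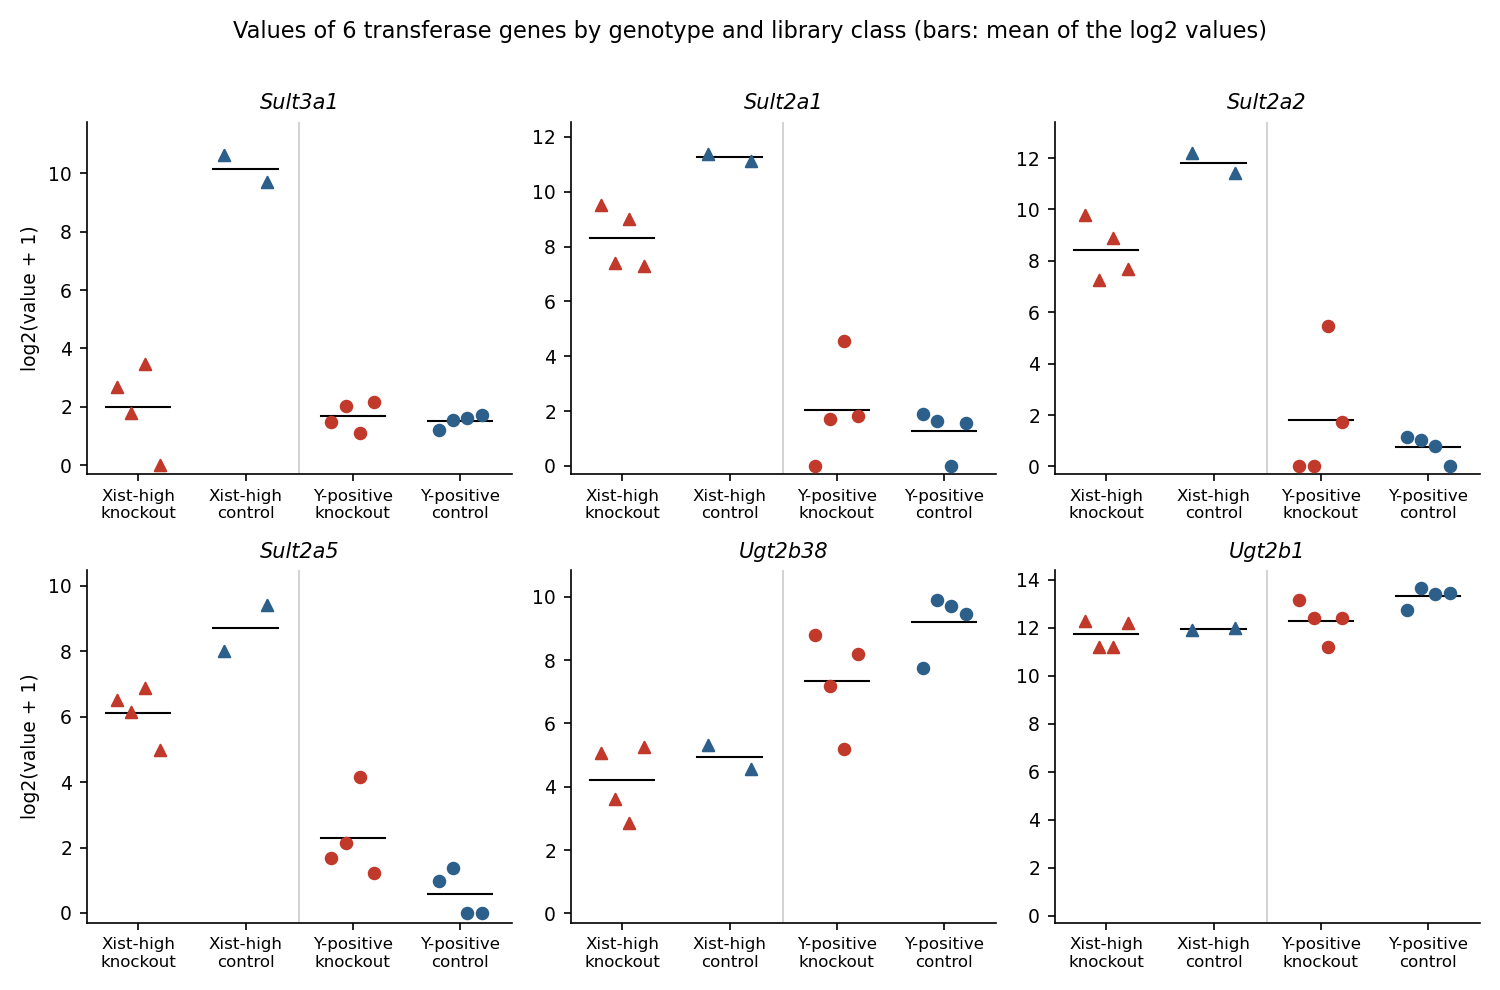
Values on the log2(value + 1) scale of 6 transferase genes by genotype and library class, with the mean of each group as a bar: Xist-high knockouts (n = 4) and controls (n = 2) left of the grey line, Y-positive knockouts (n = 4) and controls (n = 4) right of it. Sult3a1 is high in the 2 Xist-high controls only (1583 and 820), and Ugt2b38 is highest in Y-positive controls (214 to 948).

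Values per kilobase of the longest coding transcript put Ugt2b5 first in both groups, at 5603 ± 2123 per kb in knockouts and 11306 ± 2387 per kb in controls (SD). In knockouts Sult1a1, Ugt1a1 and Ugt3a2 followed, at 3670 ± 608, 2938 ± 1090 and 2576 ± 853 per kb (SD). Ugt1a1 and Ugt3a2 differed by less than the SD of either. Sult1a1 was above Ugt3a2 by more than the SD of either, and above Ugt1a1 by more than its own SD but less than that of Ugt1a1. In controls Sult2a8, Ugt3a2, Sult1a1 and Ugt1a1 followed, at 6797 ± 1582, 5057 ± 1360, 4352 ± 1642 and 4057 ± 983 per kb, where each of the last 3 differed from the next in order by less than the SD of either. The other 10 members did not reach the filter. Sult1c1, Sult4a1, Sult6b1 and Sult6b2 had values under 10 in every library, and Sult2a3, Sult2a4, Sult2a6, Sult3a1, Sult3a2 and Ugt2a2 reached 10 in 2 or 3 libraries each.

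The gene lists that follow are read against the 11.5% of all genes called higher and 11.0% called lower, or 33.3% and 3.68% with libraries scaled to equal sums. Genes that supply the sugar and sulfate donors had calls in both directions with the deposited size factors and higher calls alone at equal sums. Of 10 genes for UDP-glucuronic acid, 2 rose and 2 fell, with a median log2 change of -0.00206, and at equal sums 4 were higher and 0 lower. Ugdh, the dehydrogenase that makes UDP-glucuronic acid, had 3864 to 17477 in knockouts and 2818 to 4487 in controls, a change of 0.85 ± 0.28 (SE, adjusted p = 0.0420). It was 0.39 without knockouts 3, 6 and 7 (adjusted p = 0.0723). Slc35d1, which carries UDP-glucuronic acid into the endoplasmic reticulum, rose by 0.36 (adjusted p = 0.0336). Pgm2, a phosphoglucomutase, changed by -0.47 ± 0.09 (SE, adjusted p = 0.00162) and Ugp2, which makes UDP-glucose, by -0.37 ± 0.11 (SE, adjusted p = 0.0212). Both were no longer called with libraries scaled to equal sums (adjusted p = 0.192 and 0.848). Of 11 genes for PAPS and sulfate, 3 rose and 2 fell, with a median of 0.09, and at equal sums 6 were higher and 0 lower. Papss1, a PAPS synthase, had 329 to 602 in knockouts and 182 to 363 in controls, a change of 0.82 ± 0.16 (SE, adjusted p = 0.00232). Slc26a1, a sulfate transporter, changed by -0.68 ± 0.19 (SE, adjusted p = 0.0176) and Mpst, a sulfurtransferase of cysteine breakdown, by -0.57 ± 0.18 (SE, adjusted p = 0.0364). Neither was called without knockouts 3, 6 and 7 (adjusted p = 0.0739 and 0.122) or at equal sums.

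Transporters of conjugates and bile acids changed in both directions: of 14 genes 5 fell and 2 rose, with a median of -0.67. At equal sums, where the median of all genes was 0.38, 3 of the transporters were lower and 5 higher (background 3.68% and 33.3%), with a median of -0.33. Their summed values were 22152 to 38543 in knockouts and 54428 to 63917 in controls, with no overlap. The uptake transporters Slco1a1 and Slc10a1 fell. Slco1a1 had 197 to 5212 in knockouts and 2757 to 16278 in controls, a change of -3.48 ± 0.71 (SE, adjusted p = 0.00269). Slc10a1, the bile acid uptake carrier, had 1221 to 6456 in knockouts and 7868 to 13331 in controls, a change of -1.70 ± 0.39 (SE, adjusted p = 0.00579). Abcc4, an efflux pump toward the blood, rose, with 332 to 2885 in knockouts and 58.3 to 153 in controls and a change of 3.28 ± 0.50 (SE, adjusted p = 3.13e-04). Of 23 genes for transcription factors and receptors that act on the transferases, 10 fell and 2 rose, with a median of -0.39. At equal sums 5 were lower and 4 higher (background 3.68% and 33.3%), with a median of -0.06 where that of all genes was 0.38. Without knockouts 3, 6 and 7, 6 were lower and 1 higher. Nr1i3, which encodes CAR, had 822 to 2353 in knockouts and 3148 to 6310.1 in controls, a change of -1.42 ± 0.27 (SE, adjusted p = 0.00157). Onecut1 changed by -1.35 ± 0.36 (SE, adjusted p = 0.0140) and was not called without knockouts 3, 6 and 7 (adjusted p = 0.0841). Foxa3 changed by -0.96 ± 0.18 (SE, adjusted p = 0.00155).

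Other genes known to respond to CAR, PXR, AHR and NRF2 were more often higher than lower: of 16, 9 rose and 2 fell, with a median of 0.88, and at equal sums 12 were higher and 0 lower. Gsta1, a glutathione transferase, had 72.9 to 3984 in knockouts and 0 to 47.5 in controls, a change of 4.88 ± 0.995 (SE, adjusted p = 0.00265). Cyp2b10, a CAR target, had 372 to 1434 in knockouts and 14.7 to 358 in controls, a change of 3.71 ± 0.62 (SE, adjusted p = 6.44e-04). Gstm3, another glutathione transferase, changed by 2.84 ± 0.48 (SE, adjusted p = 7.02e-04). Of 13 other conjugating enzymes of the liver, 3 fell and 1 rose, with a median of -0.34. At equal sums 1 was lower and 3 were higher (background 3.68% and 33.3%), with a median of -0.006 where that of all genes was 0.38. Inmt, an indole methyltransferase, changed by -1.20 ± 0.28 (SE, adjusted p = 0.00693) and the arylamine acetyltransferase Nat2 by 0.67 ± 0.10 (SE, adjusted p = 3.85e-04). The fit has no term for library class, and 4 of 8 knockouts but 2 of 6 controls were Xist-high, so the next 2 lists are also given by class. Of 15 genes known as higher in male mouse liver, 5 fell and 0 rose, with a median of -1.38. With class as a covariate 6 were lower and 1 higher, and the median change was -1.64 among Y-positive libraries and -0.44 among Xist-high ones. Cyp7b1 changed by -3.44 ± 0.67 (SE, adjusted p = 0.00188) and C8a by -3.21 ± 0.76 (SE, adjusted p = 0.00707). Of 20 genes known as higher in female mouse liver, 2 fell and 0 rose, with a median of 0.32. With class as a covariate 2 were lower and 2 higher, and the medians had opposite signs, 0.75 among Y-positive libraries and -1.57 among Xist-high ones. The 2 that fell were Cyp2c69, with -4.06 ± 1.18 (SE, adjusted p = 0.0217), and Cyp2c40, with -3.60 ± 0.88 (SE, adjusted p = 0.00820), and Cyp2c69 was not called without knockouts 3, 6 and 7 (adjusted p = 0.0986). Adjusted p values in these lists are from limma over all genes.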

How the data were processed

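Total RNA of 14 livers was sequenced after Trizol extraction with a stranded Takara SMARTer Pico kit, per the labels' protocols. The tools were kallisto and sleuth and the build mm10, per the submitters' processing notes, and versions and the strand setting are not given in the sources used here. The signal values deposited by the authors were estimated counts per gene divided by 1 size factor per library, as read from the values themselves. The table deposited by the authors also holds a p-value and a q-value per gene. The authors' deposited change was a natural log of control over knockout and was not used.

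Values were tested as log2(value + 1) with limma 3.58.1 in R 4.3.3 (trended prior variance, knockout minus control, no covariate) on the 23554 genes that reached 10 in 6 or more libraries, with Benjamini-Hochberg adjustment over all of them. The values are not counts, so no count test was used and no counting interval is given, and values in the shallow libraries are the least precise. Depth was 11.1 to 33.8 estimated megareads per library. The labels number the livers and do not state separate animals, so the p-values measure the spread between these samples. Library class was set from Xist and 4 Y-linked genes (Ddx3y, Kdm5d, Uty and Eif2s3y). The script was tested on simulated data.

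The members and gene lists were chosen with earlier results of these data known. Named genes were all called members, those with an adjusted p of 0.05 to 0.10, the highest member of each family, and the 3 called genes with the largest change in each list. Other members are named after their values were seen. Some listed genes are not reported here. Positions, junctions and 31-base words came from GENCODE M21 (GRCm38) and promoters from RefSeq (GRCm38.p6). The alternatives changed the threshold, filter, pseudocount, scaling, weights, covariates, test and libraries, and the closing section gives their effect. The interaction without a filter, and the fit without the block in the 12 libraries used for it, were chosen after seeing the data.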

Additional observations from a re-analysis of the deposited data

Results flagged for a closer look

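In 34 groups of values, 6 controls or 8 knockouts of each named gene, 2 had a library far from the others, and chance alone gives about 1 in 20. Sult1e1 in knockout 7 was 317, and its gap to the next knockout was 0.628 of the range of the group. Knockout 7 is also 1 of the 3 knockouts that stood apart. Ugt2b1 in knockout 1 was 8956, with a gap of 0.533 of the range.

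In a fit chosen after seeing the data, the knockout effect on Sult3a1 differed between library classes. The change in Xist-high libraries minus that in Y-positive libraries was -8.33 on the log2 scale (limma without the filter on low values, adjusted p = 0.00703). Sult3a1 was lower in 4 of 4 Xist-high knockouts than in either of the 2 Xist-high controls. Those controls had 1583 and 819.8, and every other library had 0 to 10.1, so the difference rests on 2 libraries. Library class cannot be told apart from depth here, and knockouts 6 and 7, which stood apart, are Xist-high.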

How the results depend on the processing

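All 12 called genes kept their direction in every alternative run for them, and Ugt1a5 kept its call in all 29. Calls were lost in 7 of 29 alternatives for Ugt2b36 and for Ugt2b37, in 5 for Ugt3a1, in 3 for Sult2a8, in 2 for Ugt2b5 and for Sult1d1, and in 1 for each of the other 5. Of the genes that were not called, Sult1a1 changed direction, to 0.17 with libraries scaled to equal sums and to 0.11 after quantile normalization, and was called in neither.

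The count of higher genes, 1 (background 11.5%), was 0 among genes above the median value (Sult1e1 is below it), where 1968 genes in all were higher. It was 3 at equal sums (background 33.3%) and 2 with log2 depth as a covariate, where 2494 of 23554 genes were higher. With Y-positive libraries alone it was 2 (background 7.39%), and with Xist-high libraries alone 0 (background 0.73%). Of lower genes there were 11 (background 11.0%). There were 7 with Y-positive libraries alone (background 8.3%) and 2 with Xist-high libraries alone (background 0.2%), and both have fewer samples. At a threshold of 0.01 there were 7 (background not given here). For the equal sums and the depth covariate the cause was not tested. The count whose knockout effect differed between classes was 0 (background 0.0552%), and 1 without the filter (background not given here). With 1 library left out at a time, 1 to 1 genes were higher and 10 to 12 lower. In those fits 2189 to 2863 of all 23554 genes were higher and 2039 to 2792 lower. The q in the authors' deposited table, at 0.05, called the same 12 genes.

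With the replicate number as a block (12 libraries, without knockouts 7 and 8), 1 gene was higher and 12 were lower, against 1 and 11 in the same libraries without the block. The block lost Ugt2b37 (adjusted p = 0.0585, against 0.0260 without it) and added Ugt1a1 and Ugt2a1, while calls of lower genes over all 23554 numbered 1928 with the block and 2143 without. In the labels the samples share only a number, but those of the same number also share library class, so the block takes up class as well. Same-number deviations from the group means correlated at 0.0707 to 0.228. With the means of group and class removed, they correlated at -0.0585 to 0.149. Not every knockout correlated best with its own number. Low values limit the precision for Sult1e1 in controls, Sult5a1 in knockouts, Ugt2a1 in both groups and Sult2a1 to Sult2a7 in Y-positive libraries.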
